A study of Mus musculus with 9 samples.

Results

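The anaphase-promoting complex/cyclosome (APC/C) and the genes around it were examined in mouse embryonic fibroblasts (MEFs). The set comprised 10 genes, taken by name from the 15184 genes of the deposited table, and all 10 were listed there. They were 6 constitutive subunits (Anapc1, Anapc2, Anapc4, Anapc5, Anapc10 and Cdc27), the coactivator Fzr1, and 3 partners regulated with the cell cycle, which were the inhibitor Fbxo5, securin (Pttg1) and separase (Espl1). PolyA+ RNA was measured by RNA-Seq in 9 libraries. The 3 libraries called Empty came from empty vector MEFs, and the 3 libraries called SAM1 and the 3 called SAM2 shared the genotype label Hnrnpk_SAM. SAM, the synergistic activation mediator, uses a guide RNA and a catalytically inactive Cas9 to bring activators of transcription to a gene of choice, and here it was aimed at Hnrnpk, which encodes an RNA-binding protein. WT MEFs received the system by lentivirus and were selected with blasticidin and hygromycin, and all groups grew in DMEM with serum and antibiotics. The labels do not say which guide SAM1 or SAM2 carried, or whether replicates were separate cultures, so p-values measure the spread between libraries, which may be technical. That spread was unequal. Between 2 libraries of a group, the mean chi-square per gene of reads is near 1 where only read sampling differs. It was 11.5 to 13.8 in Empty, 1.46 to 9.49 in SAM1 and 1.54 to 2.33 in SAM2. Each fit used 1 estimate of the spread per gene for all groups.

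Hnrnpk RNA was not higher in the 6 libraries labelled Hnrnpk_SAM than in Empty, so these are named by their label or as SAM libraries throughout. Its normalized counts (reads per gene divided by the size factor of the library) were 25058, 26099 and 26164 in Empty, 24102, 24045 and 23619 in SAM1, and 26608, 26859 and 26221 in SAM2. The log2 fold change of the 6 libraries labelled Hnrnpk_SAM against Empty was -0.03 (adjusted p = 0.642, limma with Benjamini-Hochberg adjustment over 15184 genes), with -0.11 (adjusted p = 0.00252) in SAM1 and 0.04 (adjusted p = 0.159) in SAM2. Depth was similar, with 41759636 to 49026626 reads on listed genes per library. All 12 fibroblast markers were listed, although Fap averaged 6.47 in Empty, and they summed to between 897528 and 1215060 normalized counts per library. Of the blood markers 1 of 5 was listed (Cd68, 315 to 416 in Empty, 512 to 541 in SAM1 and 543 to 583 in SAM2), and of the muscle markers 1 of 4 (Des, 44.4 to 83.0, 90.8 to 111 and 223 to 245). The 2 of 5 neural markers that were listed summed to 1121 to 1374, 1271 to 1290 and 1099 to 1158, with Tubb3 averaging 268, 796 and 569 and Map2 1011, 483 and 568. Epcam, Ptprc, Myod1 and Sox10, which define epithelial, blood, muscle and neural crest cells, were not listed. The 4 of 6 epithelial markers that were listed summed to 2247 to 2428 in Empty, 7209 to 7734 in SAM1 and 2832 to 2918 in SAM2. Cldn4 averaged 366, 3691 and 211 and Krt19 1938, 3623 and 2624. Cdh1 (the cadherin gene) averaged 33.9, 88.7 and 32.4 and Krt8 12.2, 23.0 and 16.7. All 4 endothelial markers were listed and summed to 301 to 357, 4613 to 4988 and 638 to 689, which was mostly Kdr (means of 211, 4693 and 536), while Cdh5 averaged 77.6, 64.7 and 51.2, Tek 35.6, 29.0 and 67.1 and Pecam1 12.9, 29.5 and 11.99. The part of these markers in the results was not tested.

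The APC/C is a ubiquitin ligase that marks mitotic proteins for destruction by the proteasome. It works with a coactivator, Cdc20 early in mitosis or Cdh1 (encoded by Fzr1) from late mitosis into G1, which brings the substrates to it. Its best known substrate is securin, which holds separase inactive, and once securin is destroyed separase cleaves the cohesin rings that join sister chromatids. The subunits are present throughout the cycle, whereas mRNAs of the inhibitor Emi1 (encoded by Fbxo5), securin, separase and most substrates accumulate in cells that pass through S, G2 and M phase.

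Separase and Emi1 mRNA changed most among the 10 genes, and both rose. Securin mRNA fell by 0.41 on the log2 scale and Fzr1 mRNA rose by 0.43, while none of the 6 constitutive subunits of the set changed by more than the -0.31 of Anapc4. Against Empty, the 6 libraries labelled Hnrnpk_SAM had 3 members higher (Espl1, Fbxo5 and Fzr1) and 4 lower (Pttg1, Anapc4, Anapc10 and Anapc5), and 3 did not pass the threshold of an adjusted p of 0.05 (Anapc1, Anapc2 and Cdc27). Over all listed genes, 26.8% were called higher and 27.0% lower in this comparison, so the number of calls does not set the members apart. Their log2 fold changes ran from -0.41 to 1.72, beside a median of 0.01 over all genes. The higher 3 had every SAM library above every Empty library, as 25.9% of all genes did, and the lower 4 had every one below, as 27.2% did. In bulk RNA, fewer cells of a kind (here, cells in mitosis) and less RNA per cell cannot be told apart, nor can more of either.

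**Figure D1:**
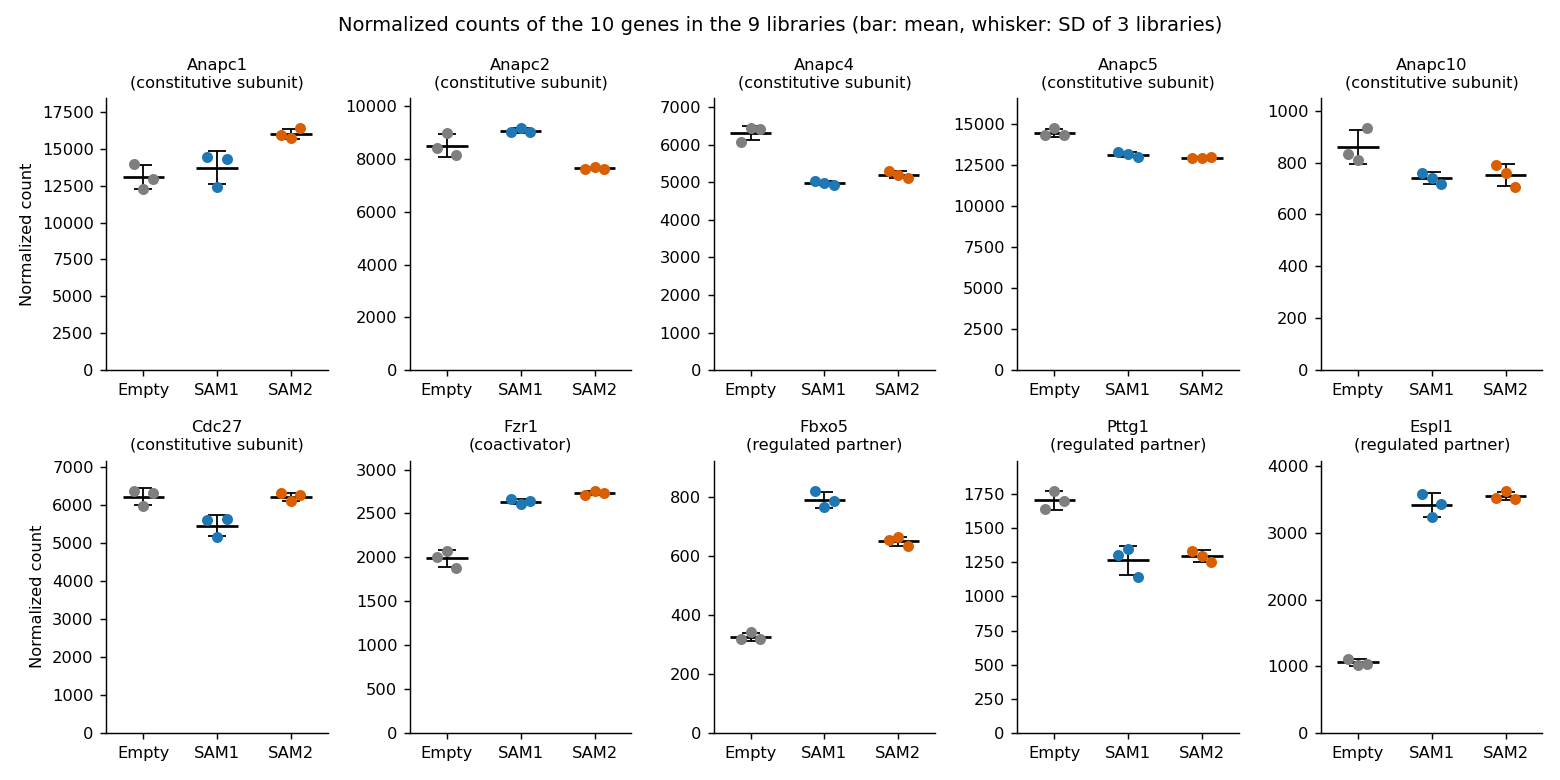
Normalized counts (vertical axes, from 0) of the 10 genes in each library, grouped as Empty, SAM1 and SAM2, with points for libraries, bars for means and whiskers for the SD of 3 libraries. The Espl1 libraries sit between 1023 and 1114 in Empty and between 3232 and 3631 in SAM1 and SAM2, whereas the 6 constitutive subunits differ less from their Empty level.

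Anapc4, a subunit of the platform that holds the complex together, had normalized counts of 6081, 6435 and 6404 in Empty, 5039, 4972 and 4926 in SAM1, and 5287, 5192 and 5108 in SAM2. All 6 SAM libraries lay below the Empty libraries. The log2 fold change was -0.31 ± 0.04 (SE, adjusted p = 8.53e-05), and it was -0.34 in SAM1 and -0.28 in SAM2. Anapc5, also of the platform, had 14309, 14734 and 14308 in Empty, 13261, 13154 and 12977 in SAM1, and 12922, 12892 and 12954 in SAM2. The groups did not overlap, and the fall was small at -0.15 ± 0.03 (adjusted p = 0.00221), but under quantile normalization it was -0.01 and was not called (adjusted p = 0.809).

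Anapc10, which helps the coactivator to hold a substrate, had normalized counts of 833, 810 and 932 in Empty, 761, 740 and 716 in SAM1, and 791, 760 and 707 in SAM2. Its log2 fold change was -0.20 ± 0.06 (adjusted p = 0.0190). The call rested on Empty replicate 3, the highest of the 9 libraries, and without it the change was -0.14 (adjusted p = 0.103). In SAM2 alone (-0.19, adjusted p = 0.0139) the call was lost without that library (-0.13, adjusted p = 0.0747) or without SAM2 replicate 3 (-0.14, adjusted p = 0.0727). Anapc10 shared 31 exon bases with Abce1 on the other strand, whose log2 fold change was 0.01.

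Anapc1, the central scaffold, had 13951, 12298 and 12970 normalized counts in Empty, 14431, 12425 and 14327 in SAM1, and 15913, 15756 and 16393 in SAM2. SAM1 overlapped Empty and SAM2 lay above both. The change was 0.18 ± 0.09 (adjusted p = 0.102) for both lines, 0.07 (adjusted p = 0.275) in SAM1 and 0.30 (adjusted p = 0.000339) in SAM2. Without SAM1 replicate 2, the lowest library of that line, the change was 0.23 (adjusted p = 0.0123) for both lines and 0.14 (adjusted p = 0.00914) in SAM1, and under quantile normalization it was 0.32 (adjusted p = 0.00397) for both lines.

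Anapc2, the cullin subunit of the catalytic core, had 8409, 8975 and 8151 normalized counts in Empty, 9010, 9169 and 9039 in SAM1, and 7619, 7700 and 7613 in SAM2. The lines stood on opposite sides of Empty. SAM1 was higher by 0.09 (adjusted p = 0.0227) and SAM2 lower, at -0.15 (adjusted p = 0.00108), which left -0.03 (adjusted p = 0.765) for both. The SAM1 call was lost without Empty replicate 1 (0.09, adjusted p = 0.0548) or Empty replicate 3 (0.06, adjusted p = 0.115), and the SAM2 call under quantile normalization (-0.07, adjusted p = 0.0725).

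Cdc27, a subunit of the arm that receives the coactivator, had 6362, 5956 and 6307 normalized counts in Empty, 5602, 5141 and 5611 in SAM1, and 6296, 6089 and 6245 in SAM2. SAM1 lay below Empty and SAM2 lay within it. The log2 fold change was -0.19 (adjusted p = 0.000653) in SAM1 and 0.00 (adjusted p = 0.987) in SAM2, and the SAM1 call was lost under quantile normalization (-0.08, adjusted p = 0.0734). Its exons shared 258 bases with Myl4 on the other strand, a gene at 58 to 87 normalized counts per library that passed no test.

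Of the 8 other subunits 5 were lower and 3 not called for both lines against Empty. Over all listed genes, 27.0% were called lower and 26.8% higher in that limma comparison. Of all 14 APC/C subunits, 8 were lower and 0 higher in limma, with a median log2 fold change of -0.16, and under quantile normalization 8 were lower and 1, Anapc1, higher, with a median of -0.13. At an unadjusted p under 0.05 the count of higher subunits was also 0, and edgeR and DESeq2 on recovered reads called 0 higher, with 7 and 8 lower. In each line alone 10 were lower, and 1 was higher in SAM1 (Anapc2) and 2 in SAM2 (Anapc1 and Cdc23). Of all genes, 36.9% were lower and 37.3% higher in SAM1, and 35.3% and 35.2% in SAM2. Of the 6 constitutive members 3 were lower and 3 not called, with a median of -0.12 that became -0.01 under quantile normalization (1 higher, 2 lower). Anapc11, the RING subunit that works beside Anapc2, fell by 0.62 ± 0.08 (adjusted p = 0.000197), the largest change of the 14, with 6815, 7967 and 7029 normalized counts in Empty, 4968, 5492 and 4865 in SAM1, and 4353, 4441 and 4385 in SAM2. The TPR subunits Cdc16 (-0.24, adjusted p = 0.000126) and Anapc7 (-0.15, adjusted p = 0.00839) and the small subunits Anapc13 (-0.30, adjusted p = 0.0433) and Cdc26 (-0.19, adjusted p = 0.0188) were also lower. Anapc15 (-0.16, adjusted p = 0.0742), Anapc16 (0.02, adjusted p = 0.723) and Cdc23 (0.07, adjusted p = 0.698) did not pass. The normalized counts of all 14 summed to 77772 to 79717 per library in Empty, 70938 to 72467 in SAM1 and 73403 to 73794 in SAM2, lower in every SAM library. The total of all normalized counts was lower there as well (43909125 to 45489906 against 48686625 to 49041969), and the 14 made up 0.159% to 0.164% of it in Empty and 0.162% to 0.163% in the SAM libraries, so the groups overlapped in this share.

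**Figure D2:**
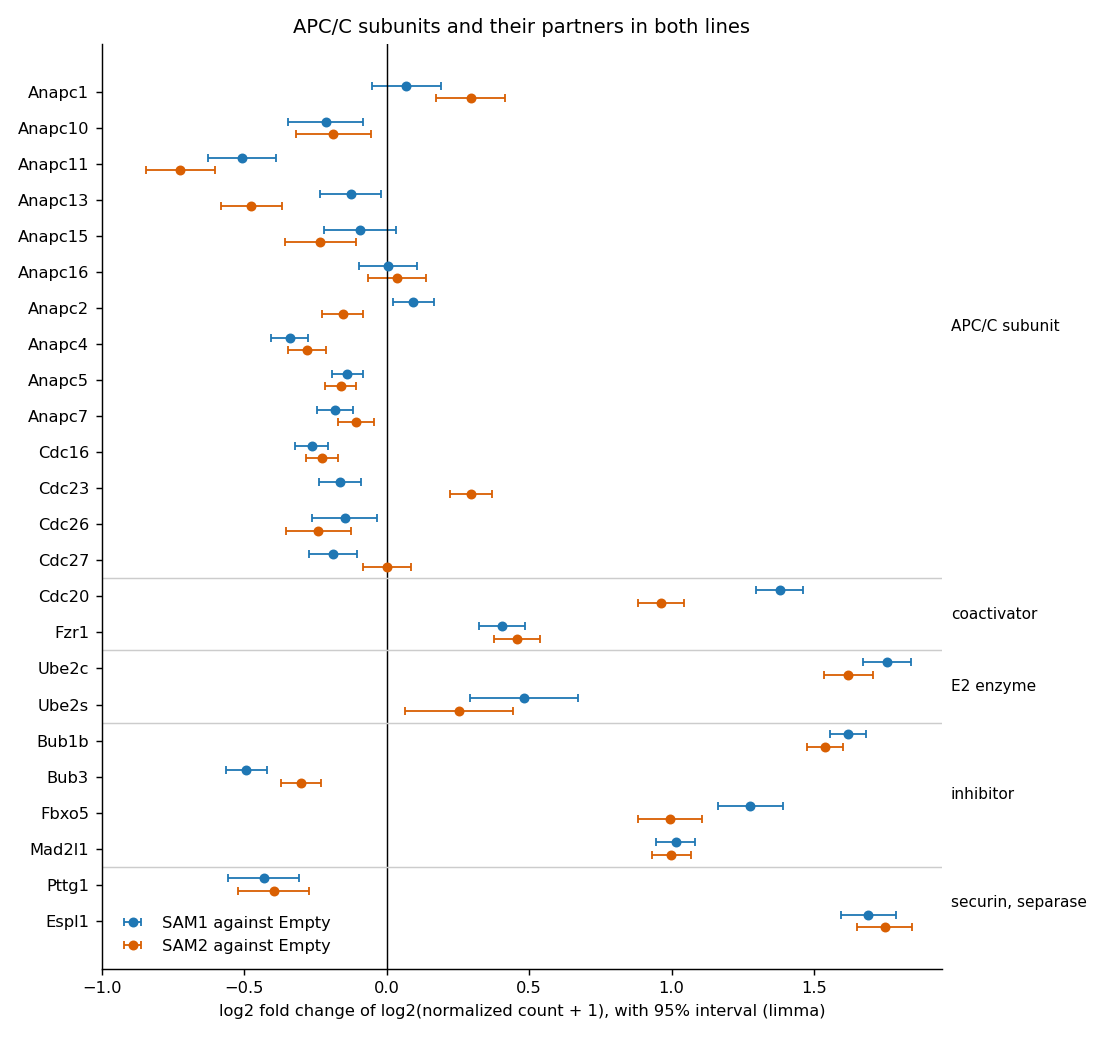
Log2 fold change (horizontal axis, of log2(normalized count + 1)) of each line against the shared Empty libraries, with 95% intervals from limma, for 14 APC/C subunits, 2 coactivators, 2 E2 enzymes, 4 inhibitors, securin and separase. The subunits lie between -0.72 and 0.30, while Espl1 reaches 1.69 in SAM1 and 1.75 in SAM2.

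Fzr1, which encodes the coactivator Cdh1, had 2009, 2077 and 1883 normalized counts in Empty, 2660, 2607 and 2637 in SAM1, and 2714, 2757 and 2727 in SAM2. Every Hnrnpk_SAM library was above every Empty library. The log2 fold change was 0.43 ± 0.04 (adjusted p = 1.87e-05), a level 1.35 times that of Empty, with 0.41 in SAM1 and 0.46 in SAM2. The other coactivator, Cdc20, had 1293, 1297 and 1345 normalized counts in Empty, 3284, 3589 and 3372 in SAM1, and 2575, 2552 and 2544 in SAM2. Its change was 1.17 ± 0.12 (adjusted p = 4.04e-05), and the SAM2 libraries lay between Empty and SAM1. Both E2 enzymes of the APC/C were higher. Ube2c, which starts the ubiquitin chain, changed by 1.69 ± 0.06 (adjusted p = 3.15e-08), and Ube2s, which extends it, by 0.37 ± 0.11 (adjusted p = 0.0163).

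Fbxo5 encodes Emi1, which blocks the APC/C from S phase until mitosis. Its normalized counts were 319, 341 and 317 in Empty, 820, 766 and 785 in SAM1, and 654, 663 and 633 in SAM2. The 3 groups did not overlap, and SAM2 stood between Empty and SAM1. The log2 fold change was 1.14 ± 0.09 (adjusted p = 8.64e-06) for both lines, 1.28 in SAM1 and 0.99 in SAM2. Of the checkpoint proteins that hold Cdc20 back, Mad2l1 (1.01 ± 0.03, adjusted p = 2.98e-08) and Bub1b (1.58 ± 0.04, adjusted p = 6.61e-09) were also higher. Bub3, which acts in the same checkpoint complex, was lower at -0.40 ± 0.06 (adjusted p = 0.000618), with 5999 to 6381 normalized counts in Empty and 4299 to 5105 in the SAM libraries.

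Espl1, the protease separase, had the largest change of the 10 members. Its normalized counts were 1114, 1023 and 1039 in Empty, 3589, 3232 and 3440 in SAM1, and 3524, 3631 and 3512 in SAM2. Both lines lay far above Empty and overlapped each other. The log2 fold change was 1.72 ± 0.05 (adjusted p = 1.45e-08), a level 3.29 times that of Empty, and it had rank 657 among the 15184 listed genes, counted from the highest. Pttg1, its inhibitor securin, had 1639, 1773 and 1697 normalized counts in Empty, 1303, 1347 and 1146 in SAM1, and 1335, 1297 and 1249 in SAM2. All 6 SAM libraries lay below Empty. Its log2 fold change was -0.41 ± 0.06 (adjusted p = 0.000253), a change of -24.9%, with -0.43 in SAM1 and -0.40 in SAM2. Pttg1 shared 220 exon bases with Slu7 on the other strand, which was lower too (-0.21, adjusted p = 0.00653), and the strand setting of the counting is not given in the sources used here.

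The balance of the pair was read within each library as a ratio of normalized counts per kb of merged exon. Pttg1 to Espl1 was 5.69, 6.70 and 6.32 in Empty, 1.40, 1.61 and 1.29 in SAM1, and 1.46, 1.38 and 1.37 in SAM2. The mean was 6.23 ± 0.511 (SD, n = 3) in Empty, 1.43 ± 0.164 in SAM1 and 1.41 ± 0.0502 in SAM2, so securin mRNA exceeded separase mRNA in all 9 libraries, by much less in both lines. Fbxo5 to Fzr1 moved the other way, from 0.246 ± 0.007 in Empty to 0.451 ± 0.0111 in SAM1 and 0.357 ± 0.00751 in SAM2. Cdc20 to Fzr1 was 1.57 ± 0.112 in Empty, 3.08 ± 0.173 in SAM1 and 2.22 ± 0.0283 in SAM2. The groups did not overlap in any of the 3 ratios except SAM1 and SAM2 for Pttg1 to Espl1.

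**Figure D3:**
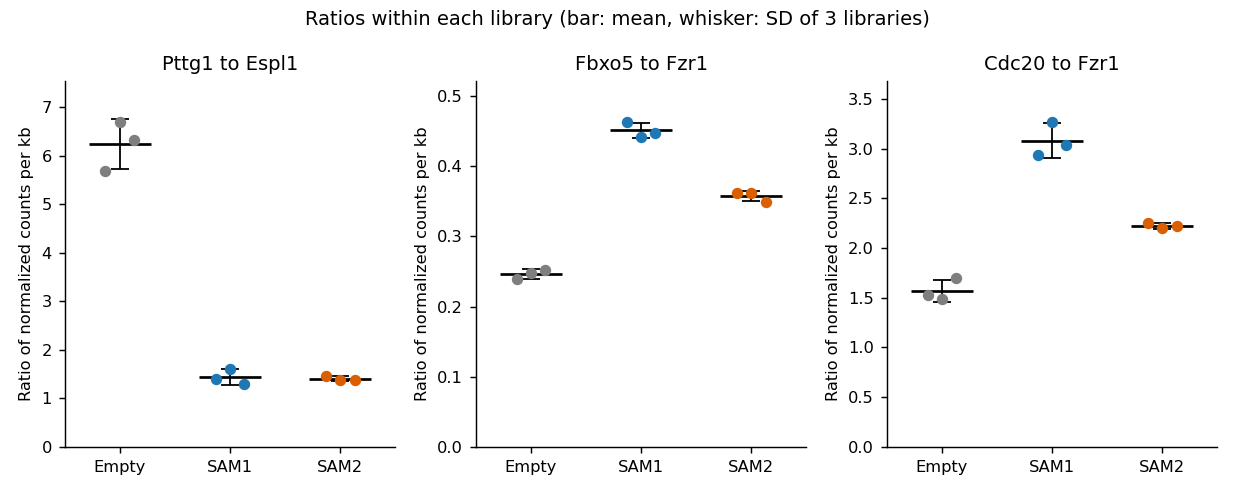
Ratios of normalized counts per kb of merged exon within each library (vertical axes, from 0), with points for libraries, bars for means and whiskers for the SD of 3 libraries. Pttg1 to Espl1 falls from 5.69 to 6.70 in Empty to 1.29 to 1.61 in SAM1 and SAM2, while Fbxo5 to Fzr1 and Cdc20 to Fzr1 rise most in SAM1.

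The promoters of Espl1 and Fbxo5 are shown because their RNAs rose more than those of the other members. Each window runs from 250 bases before the start of the GENCODE canonical transcript to 50 bases from it (GRCm39, 5′ to 3′ on the strand of the gene). Capitals mark the cell cycle homology region CHR (TTTGAA, or TTCAAA on the other strand) and the CCAAT box (CCAAT, or ATTGG on the other strand). The windows are chr15:102204451-102204750 (plus strand) for Espl1 and chr10:5755864-5756163 (minus strand) for Fbxo5.
Espl1: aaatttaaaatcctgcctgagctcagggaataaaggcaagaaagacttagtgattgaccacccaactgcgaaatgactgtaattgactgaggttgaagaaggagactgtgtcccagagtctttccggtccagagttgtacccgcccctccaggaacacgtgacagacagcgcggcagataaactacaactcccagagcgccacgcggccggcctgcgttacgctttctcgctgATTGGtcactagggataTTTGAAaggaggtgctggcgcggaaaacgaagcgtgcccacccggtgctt
Fbxo5: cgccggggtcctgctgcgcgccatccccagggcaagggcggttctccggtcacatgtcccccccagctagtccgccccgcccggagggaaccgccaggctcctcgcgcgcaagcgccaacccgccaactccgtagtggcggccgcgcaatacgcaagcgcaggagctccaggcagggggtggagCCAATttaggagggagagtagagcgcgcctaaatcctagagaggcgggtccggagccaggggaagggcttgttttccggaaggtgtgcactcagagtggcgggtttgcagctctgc
In RefSeq (GRCm38.p6) the start of Fbxo5 lies elsewhere, so its window there, chr10:5805416-5805715 (minus strand), is shown as well.
Fbxo5 in RefSeq: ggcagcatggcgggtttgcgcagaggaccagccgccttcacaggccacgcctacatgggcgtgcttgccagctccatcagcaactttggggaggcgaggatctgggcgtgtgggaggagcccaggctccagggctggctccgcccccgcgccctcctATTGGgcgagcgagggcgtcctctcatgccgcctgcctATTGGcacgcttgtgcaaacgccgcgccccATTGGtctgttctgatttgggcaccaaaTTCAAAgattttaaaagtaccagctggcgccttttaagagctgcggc

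With the start counted as base 1 and the base before it as -1, Espl1 held an ATTGG from base -17 and a TTTGAA from base 1. Fbxo5 held 1 CCAAT from base -66 and no CHR in the GENCODE window, but 1 CHR and 3 CCAAT boxes in the RefSeq window. Over 14774 GENCODE windows of listed genes, 14.2% held a CHR, 39.0% a CCAAT box and 5.95% both. Over 32851 RefSeq windows, 17.9% held a CHR and 37.4% a CCAAT box. No CHR match overlapped a CCAAT box. The matches are letters only, and since they are not given for all 10 members they say nothing of which genes rose or fell.

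Most genes for APC/C substrates rose, and securin did not. Of 30 listed substrates, 28 were higher, 1, Pttg1, was lower and 1, Cdc25a, was not called (0.12, adjusted p = 0.209), with a median log2 fold change of 1.20 against 0.01 for all genes. Apart from Pttg1, which is a member, 28 of 29 were higher. Over all listed genes, the share called was 26.8% higher and 27.0% lower. Pttg1 was the lowest of the 30 in each line, and the next were Cdc25a (0.24 in SAM1 and 0.00 in SAM2), the phosphatase that activates cyclin kinases, and Skp2 or Cdc6. The 3 with the smallest adjusted p-values were the spindle protein Nusap1 (1.74 ± 0.04), cyclin A2 (Ccna2, 1.43 ± 0.04) and the cohesin protector Sgo1 (1.22 ± 0.04). Proliferation genes moved with these results, with 13 of 15 higher. Their normalized counts summed to 60869 to 61284 in Empty, 92609 to 93701 in SAM1 and 87945 to 88993 in SAM2, and their part in the changes of Espl1, Fbxo5 and the substrates was not tested.

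**Figure D4:**
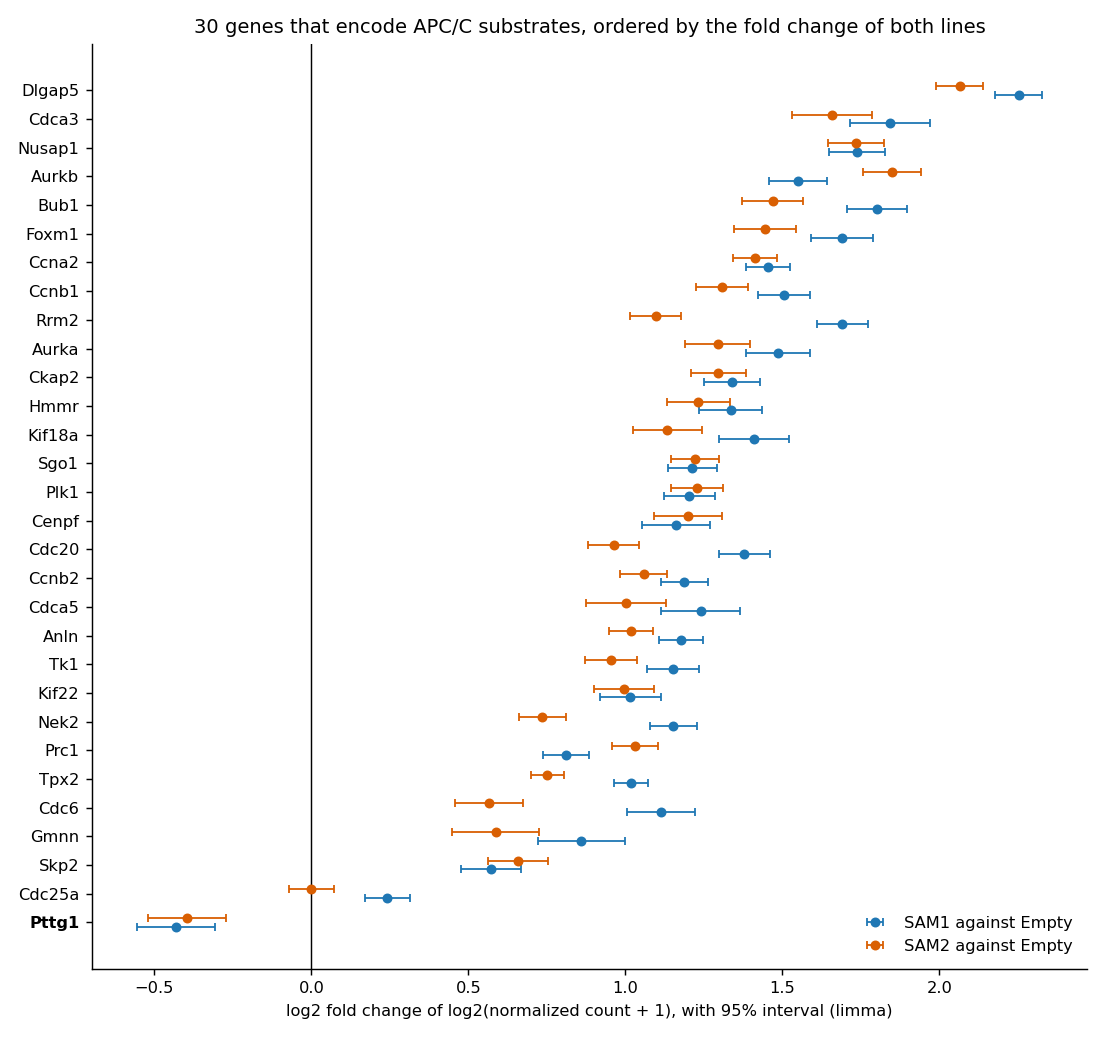
Log2 fold change (horizontal axis, of log2(normalized count + 1)) of each line against the shared Empty libraries, with 95% intervals from limma, for 30 genes that encode APC/C substrates, ordered by the change of both lines together. Pttg1 lies at -0.43 in SAM1 and -0.40 in SAM2, and Dlgap5 is highest at 2.25 and 2.07.

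Each line taken alone had 4 members higher and 5 lower. In SAM1 the higher members were Anapc2, Fzr1, Fbxo5 and Espl1 and the lower ones Anapc4, Anapc5, Anapc10, Cdc27 and Pttg1, while 37.3% of all genes were called higher and 36.9% lower. SAM2 had Anapc1, Fzr1, Fbxo5 and Espl1 higher and Anapc2, Anapc4, Anapc5, Anapc10 and Pttg1 lower, beside 35.2% of all genes higher and 35.3% lower. Both comparisons used the same Empty libraries. When SAM2 was set against SAM1, Anapc1 (0.23, adjusted p = 0.00333) and Cdc27 (0.19, adjusted p = 0.000959) were higher and Anapc2 (-0.25, adjusted p = 3.16e-05) and Fbxo5 (-0.28, adjusted p = 0.000426) lower. The other 6 were not called, while 31.1% of all genes were higher and 29.2% lower. Under quantile normalization Anapc5 was called too (-0.09, adjusted p = 0.00852), in place of -0.02.

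For the 6 members not called between the lines, the 95% interval of SAM2 minus SAM1 ran from -0.04 to 0.15 for Espl1, from -0.09 to 0.16 for Pttg1 and from -0.03 to 0.13 for Fzr1. It ran from -0.005 to 0.13 for Anapc4, from -0.08 to 0.03 for Anapc5 and from -0.11 to 0.16 for Anapc10. All SAM2 libraries lay above SAM1 for Anapc4 and below it for Anapc5, although neither passed the test. Among their partners, Cdc23 stood out with 3302, 3117 and 3241 normalized counts in Empty, 2912, 2766 and 2947 in SAM1, and 3985, 3954 and 3925 in SAM2. It was lower than Empty in SAM1 and higher in SAM2, and the lines differed by 0.46 (adjusted p = 1.11e-07). Of the 30 substrates, 18 were lower and 2 higher in SAM2 than in SAM1, with a median of -0.19, beside 29.2% of all genes lower and 31.1% higher.

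The order of the levels shifted among the regulated genes. In Empty, normalized counts per kb of merged exon were highest for Anapc2 (2279) and Anapc5 (1621), followed by Cdc27 (795), Anapc1 (710), Pttg1 (689), Anapc4 (548) and Fzr1 (430). The lowest were Anapc10 (117), Espl1 (111) and Fbxo5 (106), whose libraries overlapped from each of these genes to the next, as those of Anapc1 and Pttg1 did. In SAM1 the order ran Anapc2 (2429), Anapc5 (1473), Anapc1 (745), Cdc27 (698), Fzr1 (569), Pttg1 (512), Anapc4 (433), Espl1 (358), Fbxo5 (257) and Anapc10 (101), and only Anapc1 and Cdc27 overlapped. SAM2 had the same order with no overlap between neighbours. Fzr1 thus stood below Pttg1 and Anapc4 in Empty and above them in both lines, and Espl1 and Fbxo5 passed Anapc10. Anapc1 stood below Cdc27 in Empty and above it in both lines, although the 2 overlapped in SAM1. Per kb of the longest protein-coding transcript, Anapc5 (4427) came before Anapc2 (2816) in Empty, and Fzr1 stayed below Anapc4 in every group. By that length Anapc1 stood above Cdc27 in Empty already. Espl1 (138) and Anapc10 (134) overlapped there, with Espl1 ahead in the mean.

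Listed genes around the members were used as a reference for regional shifts. The 10 genes lie on 6 chromosomes (GRCm39, GENCODE vM39), with Anapc1 and Anapc2 on chromosome 2, Anapc4 and Anapc5 on 5, Anapc10 on 8, Fbxo5 and Fzr1 on 10, Cdc27 and Pttg1 on 11, and Espl1 on 15. Medians over the other listed genes of a whole chromosome were taken too, for both lines against Empty. The median log2 fold change was 0.21 around Anapc1, -0.16 around Anapc5 and 0.26 around Espl1. It was 0.07 around Anapc10, 0.00 around Fzr1 and 0.05 around Cdc27. For Espl1 (chr15:102204701-102233535), the 122 listed genes within 5 Mb had a median log2 fold change of 0.30, and Espl1 exceeded it by 1.42. For Fbxo5 (chr10:5748862-5755913) and Fzr1 (chr10:81202056-81214352) the excess was 0.98 and 0.47. Pttg1 differed by -0.60 from its 21 neighbours, whose median was 0.19. Of the constitutive subunits, Anapc1, Anapc5 and Cdc27 differed from their neighbours by -0.03, 0.03 and 0.01, Anapc4 by -0.14, and Anapc2 and Anapc10 by -0.25 each. Anapc4 had 23 listed neighbours, and in the single lines it differed from them less, by -0.03 in SAM1 and -0.09 in SAM2. The values near 0 for Anapc1 and Cdc27 average lines on opposite sides, with -0.25 in SAM1 and 0.13 in SAM2 for Anapc1 and -0.06 and 0.16 for Cdc27. Over all 14 subunits, 8 lay within 0.1 of the median around them for both lines together and 6 in each line alone. The same count was not made over all listed genes, so these numbers do not set the subunits apart.

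The Reactome set for degradation of securin by the APC/C with Cdc20 held 60 listed genes, of which 35 were lower and 7 higher. For both lines against Empty, 27.0% of all listed genes were lower and 26.8% higher. Most of the set are proteasome subunits, and 24 of the 42 listed were lower and 5 higher, with a median of -0.17. Of its 10 APC/C subunits 6 were lower. Among its regulators and enzymes Cdc20 and Ube2c were higher, Pttg1 and Ube2d1, an E2 enzyme, were lower, and Ube2e1 was not called. In the small set for phosphorylation of Emi1, all 6 listed genes were higher, namely Fbxo5, Fzr1, Cdc20, Ccnb1, Cdk1 and Plk1. Fbxo5 and Fzr1 are members, and Cdc20, Ccnb1 and Plk1 are among the substrates, so this mostly repeats calls given above. Other APC/C sets were counted as well and are not shown.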

How the data were processed

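PolyA+ RNA of MEFs was converted to libraries with a strand-directional kit and sequenced in pairs of 43 bases. The authors checked reads with FastQC 0.11.0, aligned them with TopHat2, Bowtie2 and SAMtools to GRCm39, counted them per gene with HTSeq (GENCODE vM29, strand setting and handling of multihits not given in the sources used here) and divided counts by DESeq2 size factors. The unit of the deposited table is thus a signal, normalized counts and not raw ones. The authors kept genes above 10 in 30% or more of the samples, which held for all 15184. In each library 100% of values were whole multiples of 1 step (tolerance 1e-06), which gave the recovered reads, from 271 to 17667 for a member in a library.

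Groups came from the labels. The test was limma 3.58.1 (trend, two-sided) on log2(value + 1), run in R 4.3.3, and p-values were adjusted after Benjamini-Hochberg over all listed genes, with a threshold of 0.05. The 6 libraries labelled Hnrnpk_SAM were compared with 3 Empty libraries, and a fit with 3 groups compared the lines. Fold changes are on that log2 scale, ± is the SE for fold changes and the SD for ratios. The tests were also run on simulated counts. In these few genes changed, alike in both lines and with the same dispersion for all genes, unlike these data. That run therefore says nothing of how reliable the calls here are. The members and gene lists were chosen with earlier results of these data known. Named are all members, the other genes of the machinery, and the 3 smallest adjusted p-values per longer list, and the genes named besides (Cdc25a, Skp2, Cdc6, Dlgap5 and those of the sets) were chosen after their values were seen. Reactome sets came with an R package, and their genes were only counted. Lengths and coordinates came from GENCODE vM39 (GRCm39), which held 14791 names of the table once. Alternatives were pseudocounts of 0.5 and 10, a stricter filter, quantile and TMM scaling, a replicate block, edgeR 4.0.16 and DESeq2 1.42.0 on recovered reads, and each library left out. edgeR on 8 libraries, without SAM2 replicate 1, whose step of 0.989 is close to 1, was added after seeing the data. Some sequences and genes are not reported here.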

Additional observations from a re-analysis of the deposited data

Results flagged for a closer look

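Each line was compared with the same Empty libraries, and 4 members differed between the lines when SAM2 was tested against SAM1 with limma. On the log2 scale SAM2 minus SAM1 was 0.23 for Anapc1 (adjusted p = 0.00333), 0.19 for Cdc27 (adjusted p = 0.000959), -0.25 for Anapc2 (adjusted p = 3.16e-05) and -0.28 for Fbxo5 (adjusted p = 0.000426). For Fbxo5 both lines were above Empty and differed in size only, whereas Anapc2 was higher than Empty in SAM1 and lower in SAM2. SAM1 and SAM2 each held 3 libraries, and the labels give no batch.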

How the results depend on the processing

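Anapc4, Fzr1, Fbxo5, Pttg1 and Espl1 kept their direction and side of the threshold against Empty in all 18 alternatives. Quantile normalization changed most: 3 members were lower in SAM1 and 3 in SAM2, in place of 5 each, and the SAM1 change of Anapc5 turned from -0.14 to 0.031 (adjusted p = 0.263). Under it the calls of Anapc5 for both lines (-0.01), of Cdc27 in SAM1 (-0.08, adjusted p = 0.0734) and of Anapc2 (-0.07, adjusted p = 0.0725) and Anapc5 (-0.06, adjusted p = 0.0603) in SAM2 were lost, Anapc5 was called for SAM2 against SAM1 (-0.09, adjusted p = 0.00852), and Anapc1 was called for both lines (0.32, adjusted p = 0.00397) and in SAM1 (0.24, adjusted p = 0.00102). The cause was not tested. In SAM2 Anapc10 was lost without Empty replicate 3 (-0.13, adjusted p = 0.0747) or SAM2 replicate 3 (-0.14, adjusted p = 0.0727). With edgeR, DESeq2, TMM scaling, other pseudocounts and the stricter filter no member's call against Empty changed. Same-numbered libraries deviated together weakly (mean r = 0.0531, 3 of 9 pairs above 0.1). Differently numbered ones had a mean r of -0.0265 (0 of 18 above 0.1). Deviations were taken from group means, which sets this second mean by the first, so it adds no evidence. Of 9 libraries 8 correlated best with one of their own number. That rests on the same deviations and is only a hint of pairing, from the data and not from the design. Since not every same-numbered pair exceeded 0.1, the block was kept as an alternative. With a replicate block no member's call changed in any of the 4 comparisons. Of all genes 3658 were then higher and 3685 lower for both lines, in place of 4076 and 4103, but the counts rose to 5849 and 5782 from 5667 and 5608 in SAM1, to 5551 and 5544 from 5340 and 5359 in SAM2, and to 5053 and 4759 from 4722 and 4440 for SAM2 against SAM1. Of the 14 subunits 7 were lower for both lines with the block or with edgeR, in place of 8. Per kb of the longest transcript, Pttg1 to Espl1 was 7.41, 1.70 and 1.67 in Empty, SAM1 and SAM2, Fbxo5 to Fzr1 0.199, 0.364 and 0.288, and Cdc20 to Fzr1 1.10, 2.16 and 1.56, in the same order. With 3 libraries per group, differences near the spread of 0.05 to 0.08 (median SD, log2) were at the limit of what these data show.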

Other observations

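Separase cuts the cohesin ring, and its genes moved less than Espl1. Of 10 listed genes of the ring and its loaders and regulators, 5 were higher in the SAM libraries than in Empty, with a median log2 fold change of 0.19. Of all genes, 26.8% were higher in that comparison. SAM1 alone had 7 of the 10 higher and 2 lower, and SAM2 had 6 and 0, beside 37.3% and 35.2% of all genes higher. Rad21, the subunit that separase cleaves, had 14179, 13993 and 14356 normalized counts in Empty, 21024, 20891 and 21722 in SAM1, and 23992, 23666 and 23844 in SAM2. The 3 groups did not overlap, and the change was 0.67 ± 0.06 (adjusted p = 1.01e-05, limma). Wapl, which opens the ring, changed by 0.67 ± 0.06 (adjusted p = 1.14e-05) and Smc1a, a core subunit, by 0.49 ± 0.05 (adjusted p = 2.56e-05). Pds5a and Pds5b, which bind Wapl, were lower in SAM1 only, at -0.38 and -0.35, and SAM2 was higher than SAM1 in both, by 0.35 and 0.33.

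The proliferation list rose in both lines, with 14 of 15 higher in each, beside 37.3% of all genes in SAM1 and 35.2% in SAM2. The smallest adjusted p-values were those of Mki67 (1.45 ± 0.08, adjusted p = 4.64e-07), Tyms (0.62 ± 0.04, adjusted p = 1.29e-06) and Mcm7 (0.44 ± 0.03, adjusted p = 4.28e-06). Rrm1, a subunit of ribonucleotide reductase, had 10986 to 11297 normalized counts in Empty, 11081 to 11280 in SAM1 and 11606 to 11871 in SAM2. Its change of 0.04 for both lines together was not called, although SAM2 lay above Empty. In SAM2 it was Mcm6 that overlapped Empty, with 5824 to 5978 normalized counts against 5634 to 5974.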
